A study of Mus musculus with 6 samples.

Results

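The genes described here encode intermediate filament proteins of the cytoplasm and the lamins of the nucleus. They were chosen by symbol, as Des, Vim, Nes, Synm, Krt8, Krt18, Krt19, Lmna, Lmnb1 and Lmnb2, and every probe set that the platform annotation pairs with exactly 1 of these symbols was read. That gave 24 probe sets for 10 genes, out of 45101 probe sets and 18194 genes in all. Of the 10 genes, 9 passed the filter on dim values, which asked that the probe set standing for the gene reach 7.95 log2 units, the median of all values, on at least 1 array. Krt18 did not pass.

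Intermediate filaments are rope-like polymers of coiled-coil proteins, and which of them a cell builds is characteristic of its type. In skeletal muscle precursors vimentin and nestin are the early partners of desmin, which later links neighbouring Z-discs with each other, with the sarcolemma and with the nucleus. The keratins of Krt8, Krt18 and Krt19 form the filaments of simple epithelia as pairs of a type II and a type I chain, and those of Krt8 and Krt19 are also known at the costameres of muscle fibres. The lamins line the inner face of the nuclear envelope. A-type lamins, from Lmna, are abundant in differentiated cells and are altered in muscular dystrophies, and B-type lamins, from Lmnb1 and Lmnb2, stay farnesylated and membrane-bound.

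All arrays came from C2C12, an established mouse myoblast line that can be made to fuse into myotubes. Parental cells were taken in growth medium with 10% fetal bovine serum, and at day 0, day 2 and day 4 after the confluent culture was moved to medium with 2% horse serum. The other arrays were from cells transfected with a vector and selected with G418 at 500 µg/ml for 2 weeks, both at day 0: the first carried a control that the labels call a LacZ vector in one field and a control sh in another, and the second a short hairpin RNA against Rp58 (shRp58). The labels do not say whether these stable lines were clones or pools, nor which promoter drove the hairpin. Every group was 1 array, so no difference below has a replicate error, none was tested, and precision is limited by how few arrays there are. Cultures were measured in bulk, so fewer cells with a transcript and less of it in each cell cannot be told apart.

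Values are log2 RMA signals, in which 1 unit is 2-fold, and a gene is read by the probe set with the highest mean over the arrays unless another is named. Levels of different probe sets are not comparable between genes, and bright or dim refers only to the signal. Array medians were 8.26 to 8.27 in the time course and 7.15 in both stable lines, so differences were taken within these sets. Zbtb18, the current symbol of Rp58, stood at 11.69 in control cells and 11.16 in shRp58 cells, a difference of -0.53, which has the sign of the label but is under 2-fold. Of 5 markers of myoblasts, among them Myod1, Myf5 and Cdh15, all passed the filter. Myotube markers were at least 2-fold higher at day 4 than at day 0 for 7 of 7 genes, and at least 2-fold lower with shRp58 for 5 of 7. All 5 kept markers of dividing cells were at least 2-fold lower at day 4 than at day 0, where 5.66% of all kept genes were.

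The stretches of 250 bases before the start of Des and of Lmnb2 are shown because from day 0 to day 2 the brightest probe set of Des was higher and that of Lmnb2 lower. Capitals mark each CANNTG, the E-box that MyoD-family factors bind with E proteins. Both are given 5′ to 3′ on the gene's strand, from RefSeq on GRCm38.p6. Des lies on the plus strand at chr1:75360042-75360291, and Lmnb2 on the minus strand at chr10:80918246-80918495, the more upstream of its 2 listed starts.
Des: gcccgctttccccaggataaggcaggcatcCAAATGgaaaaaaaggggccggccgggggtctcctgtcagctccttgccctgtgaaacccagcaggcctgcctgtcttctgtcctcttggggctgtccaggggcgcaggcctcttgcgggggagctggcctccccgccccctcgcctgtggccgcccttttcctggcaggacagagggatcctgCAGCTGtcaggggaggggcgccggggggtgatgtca
Lmnb2: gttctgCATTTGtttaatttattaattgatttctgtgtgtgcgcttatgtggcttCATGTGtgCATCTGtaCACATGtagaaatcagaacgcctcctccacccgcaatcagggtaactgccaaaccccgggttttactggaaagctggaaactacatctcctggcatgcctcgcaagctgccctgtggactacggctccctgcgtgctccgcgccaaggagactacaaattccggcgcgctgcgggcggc
The Des stretch holds 2 matches to CANNTG, and the nearer lies at bases -36 to -31 from the start and reads CAGCTG. The Lmnb2 stretch holds 4, among them CATCTG at bases -187 to -182, the core of the site known for Rp58. Reading both strands, CANNTG was present in 66.2% of 32851 listed promoters of the same length, and its forms CAGCTG and CATCTG in 13.0% and 14.4%. Promoters were used for 8 of the 10 genes, 10 in all, and CANNTG occurred in 6 of these 10. Among these 10 promoters, CAGCTG occurred only in that of Des and CATCTG only in that of Lmnb2 shown here. CAGGTG, another form of CANNTG, occurred in 3 of the 10 and in 17.2% of all. CCAAT occurred in 3 of 10, those of Vim, Synm and a more downstream start of Lmna, against 33.8% of all, and GGGCGG in 4 of 10 against 32.7%. The letters TTTGAA, present in 16.0% of all, were not found in the 10 stretches. Nor were TGACTCA (4.46% of all), a single fixed form of the CArG box (0.0609%) and the Mef2 site (2.92%). Other forms of the CArG box were not searched, so their share and their presence in these stretches are not known. A match is a string of letters and not a measured binding site. For Krt19 and Lmnb1 no promoter was read, so which motifs theirs hold is not known here.

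**Figure D1:**
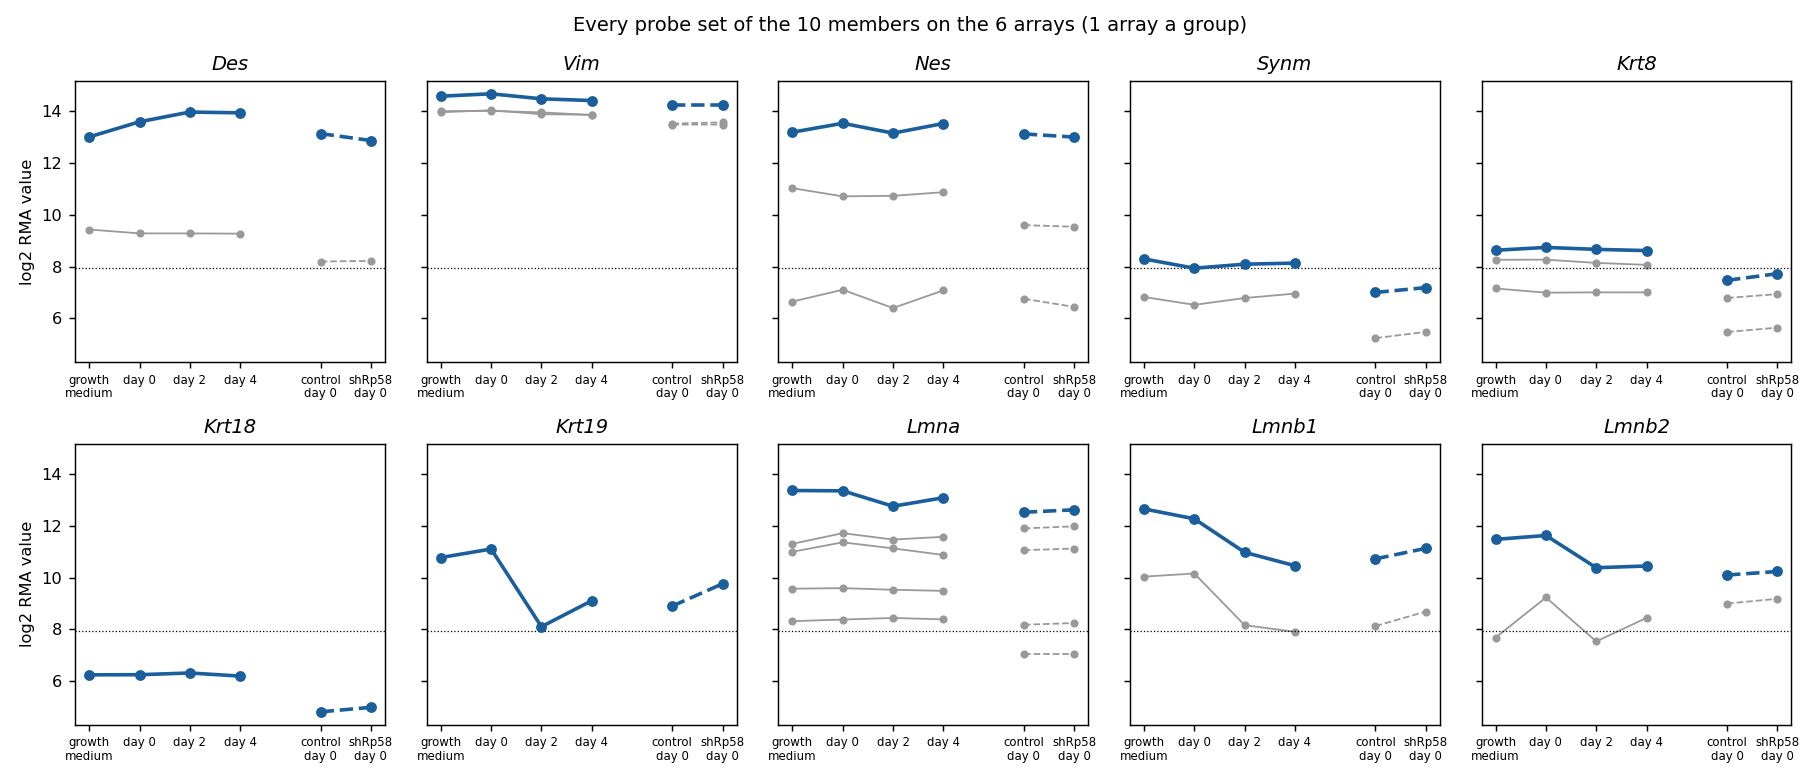
Log2 RMA value (vertical axis) of each of the 24 probe sets on the 6 arrays (horizontal axis), 1 panel a gene and 1 point an array. Blue marks the probe set that stands for the gene and grey the others, dashed lines join the stable-line arrays, and the dotted line is the filter at 7.95; Krt19, Lmnb1 and Lmnb2 step down between day 0 and day 2, while Vim, Krt8 and Krt18 stay nearly level.

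Of the 10 genes, 3 stood apart in differentiation: Krt19, Lmnb1 and Lmnb2. They were the 3 of 9 kept members at least 2-fold lower at day 2 than at day 0, where 2.96% of all kept genes were, and 0 members were higher, where 2.67% were. The same 3 were lower at day 4 than at day 0, against a background of 5.66%, with 0 higher against 3.83%. From day 2 to day 4, 1 member was 2-fold higher, Krt19, and 0 were lower, in a comparison with 0.808% of all genes in each direction. No member was 2-fold apart between day 0 and growth medium, where 2.91% of all genes were higher and 0.317% lower, 385 against 42 genes (289 against 88 after quantile normalization of all arrays). Nor was any between shRp58 and control, where the shares were 0.0529% higher and 0.619% lower.

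The members' median was 0.11 for day 0 minus growth medium, -0.38 for day 2 minus day 0, -0.26 for day 4 minus day 0 and 0.042 for day 4 minus day 2. Over all kept genes the medians were 0.098, -0.014, -0.044 and -0.033 in the same order. For shRp58 minus control the members' median was 0.14 and that of all genes -0.0072. There 6 of the 9 members lay above 0, 2 below and Vim at 0, beside 47.5% of all kept genes above 0. Differences that share the day 0 array are not independent of each other.

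Des, which encodes desmin, the main filament protein of mature muscle, differed by under 2-fold in every comparison. Its probe set 1426731_at read 13.01 in growth medium and then 13.60, 13.97 and 13.94 on days 0, 2 and 4. The order of levels was thus growth medium, day 0, then day 4 and day 2 nearly level, with a whole range of 0.96, or 1.95-fold, larger than that of 80.8% of kept genes. Day 0 stood 0.58 above growth medium, day 2 0.38 above day 0 and day 4 0.35 above day 0, each under 2-fold. In the stable lines Des read 13.14 in control and 12.87 in shRp58 cells. The difference was -0.27, and 1338 of 13242 kept genes had a lower one, while the other probe set gave 0.022. The other Des probe set, 1426732_at, was dimmer and nearly level, at 9.43, 9.28, 9.28 and 9.27 in the same order, and its values at day 0 and day 2 were identical in every deposited digit. The higher level of Des in differentiation and its lower level with shRp58 therefore rest on 1 of its 2 probe sets.

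Vim encodes vimentin, the filament protein of mesenchymal cells and myoblasts. Probe set 1450641_at read 14.58 in growth medium, followed by 14.68, 14.48 and 14.42 on days 0, 2 and 4, against an array maximum of 15.09 over the time course. Day 2 and day 4 differed from day 0 by -0.19 and -0.26. The 3 probe sets of Vim all lay below day 0 at day 4, by -0.16 to -0.26. In control and shRp58 cells the reading was the same, 14.25, to every deposited digit. Such exact ties were found between those arrays for 1032 of 45101 probe sets, 2.29%, and for 2 of the 24 member probe sets, the other being 1452212_at of Lmna. For day 4 minus day 0, Des minus Vim was 0.61, or 1.52-fold, as the difference of their differences on the same arrays. With the median over each gene's probe sets the differences were smaller, at 0.17 for Des and -0.17 for Vim. Genes that mark fibroblasts, which also hold vimentin, had a mean level of 9.83 at day 0 and 10.14 at day 4 over 5 genes, and 2 of the 4 that passed the filter were at least 2-fold higher at day 4. Markers of smooth muscle, which also holds desmin, had means of 9.67 and 9.98 over 6 genes, and 1 of 5 was 2-fold higher. Over all kept genes 3.83% were 2-fold higher at day 4 than at day 0. The part of fibroblasts or smooth muscle cells in these results was not tested.

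Nes encodes nestin, a large filament protein of precursor cells that needs a partner such as vimentin or desmin to polymerise. Its brightest probe set, 1449022_at, read 13.19 in growth medium, with 13.54, 13.16 and 13.53 on days 0, 2 and 4. It was high at day 0 and day 4 and lower at the other stages, so day 2 minus day 0 was -0.38 and day 4 minus day 2 was 0.37. The dim probe set 1453997_a_at, below 7.95 on every array, had the same alternation with -0.71 and 0.68. The third, 1418289_at, did not, with 0.020 and 0.14, and it was highest in growth medium at 11.03. For shRp58 minus control the 3 probe sets gave -0.12, -0.32 and -0.061.

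Synm encodes synemin, which joins desmin and vimentin filaments to the costamere. It was dim throughout: 1455610_at read 8.30 in growth medium and 7.94, 8.09 and 8.14 on days 0, 2 and 4. Its values in control and shRp58 cells were 7.003 and 7.19. Its highest time-course level was in growth medium and its lowest at day 0, -0.36 apart, and the dimmer 1457275_at gave -0.30 for that step. In all comparisons the 2 probe sets had the same sign, with 0.20 and 0.44 for day 4 minus day 0 and 0.19 and 0.24 for shRp58 minus control. None of these was 2-fold.

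**Figure D2:**
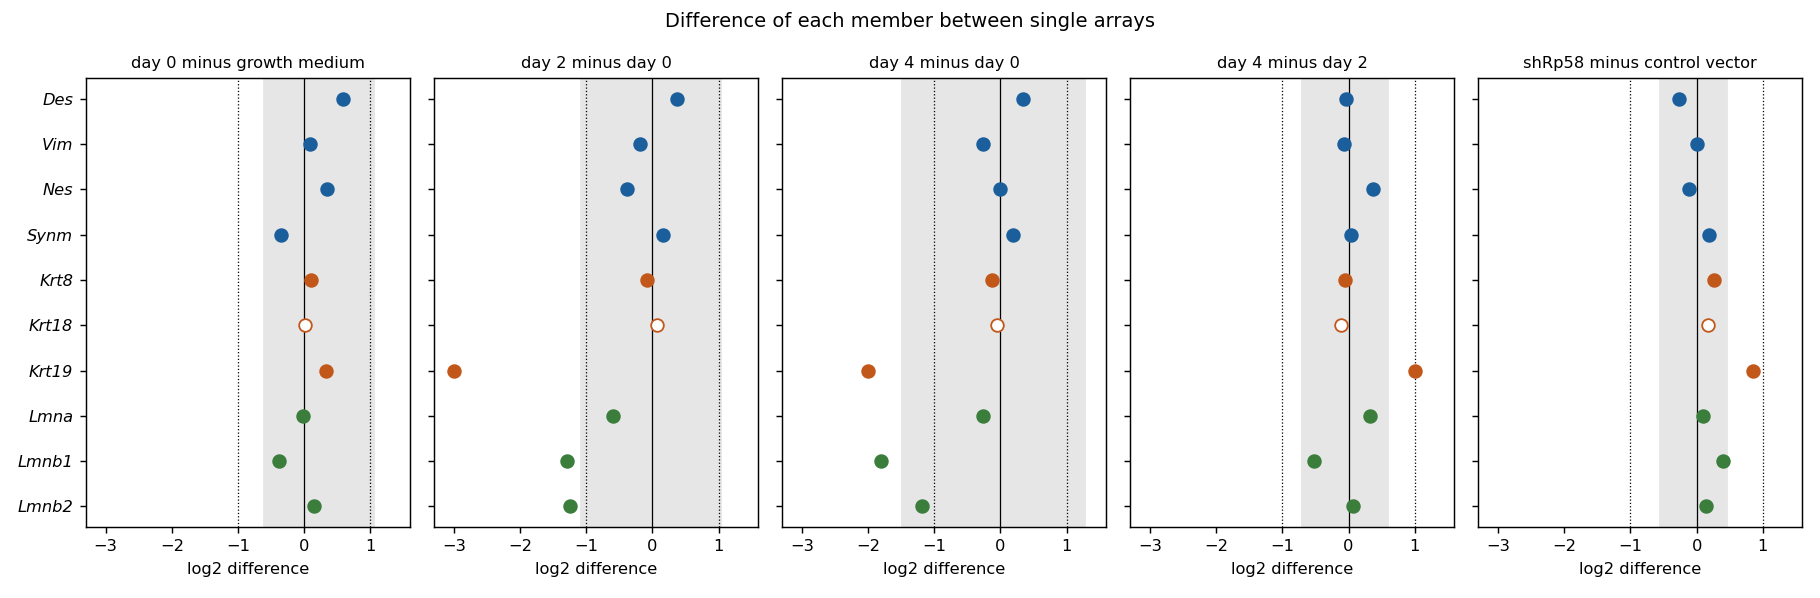
Log2 difference (horizontal axis) of each gene (vertical axis) between single arrays, 1 panel a comparison, with blue for the muscle and mesenchymal filament genes, orange for keratins and green for lamins; the open circle is Krt18, which did not pass the filter. The grey band holds the central 95% of 13242 kept genes and dotted lines mark 2-fold; Krt19 lies outside the band in 4 panels, at -3.00, -2.00, 1.002 and 0.86, Lmnb1 in the panels for day 2 and day 4 against day 0, and Lmnb2 in that for day 2 against day 0.

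Krt19 encodes the smallest type I keratin, and of the 10 genes had the largest differences in every comparison but that of day 0 with growth medium, where Des, Lmnb1, Synm and Nes exceeded it. At day 4 the second Lmnb1 probe set also lay further from day 0. Its only probe set, 1417156_at, read 10.77 in growth medium, 11.10 on day 0, 8.10 on day 2 and 9.10 on day 4. The level was high in growth medium and at day 0, lowest at day 2 and between these at day 4. Day 2 minus day 0 was -3.00, or 8.0-fold, and only 5 of 13242 kept genes had a lower difference. Day 4 minus day 0 was -2.00, or 3.99-fold, with 155 genes lower. Day 4 minus day 2 was 1.002, barely 2-fold at 2.003, and 106 genes had a higher difference. The day 2 level lay just above the filter of 7.95.

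In the stable lines Krt19 read 8.90 in control and 9.76 in shRp58 cells. The difference of 0.86, or 1.81-fold, was under 2-fold, and only 31 kept genes stood higher, while 0.459 marked the upper end of the central 95% of genes in that comparison. Control cells against parental day 0 cells stood at -1.18 for Krt19 relative to the median of kept genes. That comparison crosses the differently scaled sets and is a description only.

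The partner keratins did not share this course. Krt8, for the type II chain that pairs with the products of Krt18 and Krt19, read 8.63 in growth medium and 8.74, 8.67 and 8.62 on days 0, 2 and 4 with 1420647_a_at. Its range of 0.12 was smaller than that of all but 3.59% of kept genes. The other Krt8 probe sets ranged over 0.16 and 0.20. Krt18, read by 1448169_at, ranged from 6.19 to 6.31 in the time course and read 4.81 and 4.99 in the stable lines, all below 7.95, so its level here is only that of a dim probe set. Krt8 stood 0.26 higher with shRp58, Krt18 0.17 and Krt19 0.86. The Krt8 levels behind this, 7.47 in control and 7.73 in shRp58 cells, lay below 7.95 but above the median of 7.15 on those arrays. Over day 0 to day 2 the change of Krt19 minus that of Krt8 was -2.93.

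Genes that mark simple epithelium were read beside Krt19. Of 9 markers of simple epithelium, 4 passed the filter, Epcam, Cldn3, Cldn4 and Elf3, and their differences for day 2 minus day 0 ran from 0.013 to 0.19, with 0 of them 2-fold apart. Epcam, which encodes an epithelial adhesion molecule, read 11.86 at day 0 and 11.92 at day 2. Cdh1 (E-cadherin), Cldn7, Krt7, Esrp1 and Ovol1 did not pass, and Cdh1 read 5.88 at day 0 and 7.76 at day 2. The mean log2 level of the 9 markers was 7.93 at day 0, 8.23 at day 2 and 8.12 at day 4, and 6.88 and 6.89 in control and shRp58 cells. Keratin genes outside the members gave a mixed picture: Krt14 was at -1.35 at day 0 against growth medium, with its 3 probe sets between -1.75 and -0.87, and Krt80 stayed between 10.89 and 11.27 on the time course. Krt13, a type I keratin gene named after its values were seen, had 3 probe sets that disagreed: for day 2 minus day 0, 2 were at least 2-fold lower, the lowest at -2.40, while the brightest was at -0.12. With shRp58 its probe sets stood 0.25 to 0.87 higher.

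Against day 0, the A-type lamin gene was under 2-fold lower at day 2 and day 4 and both B-type genes were past it. Lmna, which gives rise to lamins A and C, read 13.36 in growth medium and 13.35, 12.75 and 13.08 on days 0, 2 and 4 with 1421654_a_at. Day 2 was the low point at -0.60, and day 4 lay 0.33 above it and -0.27 from day 0. The rise after day 2 was not shared by most probe sets: 2 of the 5 lay above 0 for day 4 minus day 2 and 3 below, the lowest at -0.25. The other 4 probe sets gave -0.25 to 0.061 for day 2 minus day 0, and 0 of the 5 was 2-fold apart in any comparison. In the stable lines Lmna read 12.52 and 12.62, a difference of 0.094. Of the 5 probe sets 4 lay above 0 there, by at most 0.094, and the last was tied.

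Lmnb1 encodes lamin B1, the B-type lamin most closely associated with dividing cells. Probe set 1423521_at read 12.65 in growth medium, 12.27 on day 0, 10.97 on day 2 and 10.46 on day 4. Every step was downward, by -0.38, -1.29 and -0.52, and day 4 minus day 0 was -1.81, or 3.51-fold. The other probe set, 1423520_at, read 10.04, 10.16, 8.16 and 7.90 and gave -2.00 and -2.25 against day 0, but 0.12 for the first step, so the lower level on day 0 compared with growth medium rests on 1 probe set. In control and shRp58 cells 1423521_at read 10.72 and 11.13, a difference of 0.41, and 1423520_at gave 0.56. Of all kept genes 424 stood higher than Lmnb1 in that comparison.

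Lmnb2 encodes lamin B2. Probe set 1448531_at read 11.48 in growth medium, 11.63 on day 0, 10.38 on day 2 and 10.45 on day 4, a single step of -1.25 at day 2 and little after it. The dimmer 1451849_a_at went 7.68, 9.23, 7.53 and 8.44, which is 1.55 for day 0 minus growth medium, -1.70 at day 2 and -0.79 at day 4 against day 0. Both probe sets were at least 2-fold lower at day 2 than at day 0, while at day 4 only the brighter was (-1.18), and they gave different pictures of the step into day 0. With shRp58 they stood 0.14 and 0.18 higher.

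Set against each other on the same arrays, Lmna differed less from day 0 than the B-type lamins did. Over day 0 to day 4 the difference of Lmna minus that of Lmnb1 was 1.55, or 2.92-fold, and minus that of Lmnb2 it was 0.91. By the brightest probe sets Lmnb1 and Lmnb2 moved alike from day 0 to day 2, within -0.049. From day 2 to day 4 they moved apart, by -0.58, as Lmnb1 went on downward and Lmnb2 did not. From day 0 to day 2 their other probe sets gave -2.00 for Lmnb1 and -1.70 for Lmnb2. Between shRp58 and control cells Lmna minus Lmnb1 was -0.31 and Lmna minus Lmnb2 -0.042. In that comparison, as for day 0 minus growth medium and day 4 minus day 2, Lmnb2 lay closer to Lmna than to Lmnb1 by the brightest probe sets. For day 0 minus growth medium this depends on the probe set. There the other Lmnb1 probe set, at 0.12, lay nearer than Lmna to the 0.15 of Lmnb2, whose other probe set gave 1.55.

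**Figure D3:**
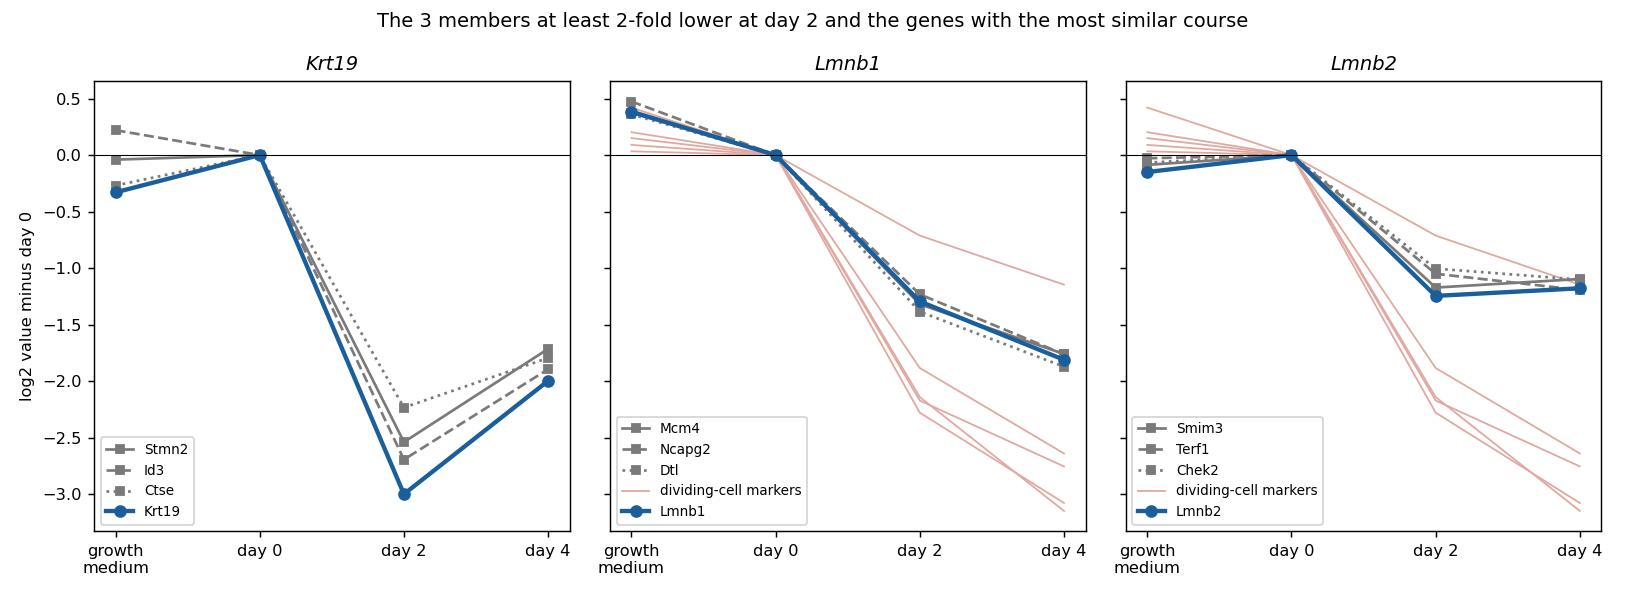
Log2 value minus that at day 0 (vertical axis) on the 4 time-course arrays (horizontal axis) for Krt19, Lmnb1 and Lmnb2 in blue and, in grey, the 3 kept genes nearest to each. Pale red lines are 5 markers of dividing cells; Lmnb1 at -1.81 ends above 4 of them and its neighbours lie almost on it, while Lmnb2 flattens after day 2.

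For the 3 members with a range of at least 2-fold, the genes of most similar course were sought among the other 13241 kept genes, by the root mean square distance over the 4 time-course arrays after each gene's mean was taken off. For Lmnb1 these were Mcm4, a subunit of the replicative helicase (0.029), Ncapg2, a condensin subunit (0.033), and Dtl, an adaptor of a ubiquitin ligase active in S phase (0.034). For Lmnb2 they were Smim3 (0.032), the telomere protein gene Terf1 (0.087) and the checkpoint kinase gene Chek2 (0.088). Krt19 had no such close match, and its nearest were the neuronal microtubule regulator Stmn2 (0.17), the inhibitor of helix-loop-helix factors Id3 (0.21) and the protease gene Ctse (0.30). The likeness did not use the stable lines, where Mcm4, Ncapg2 and Dtl stood 0.76, 0.62 and 0.56 higher with shRp58, Smim3, Terf1 and Chek2 0.33, 0.34 and 0.59, and Stmn2, Id3 and Ctse 0.88, 0.65 and 0.36. The other probe set of Ctse gave 0.035 for day 2 minus day 0, and 1 of the other Terf1 probe sets 0.036. Of 6 Dtl probe sets 3 were at least 2-fold lower at day 2 than at day 0, and the highest was at -0.39. The likeness found for Lmnb1 and Lmnb2 rests on their brightest probe sets. Over the steps to day 0, day 2 and day 4 the other Lmnb1 probe set gave 0.12, -2.00 and -0.26. The other Lmnb2 probe set gave 1.55, -1.70 and 0.91.

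Markers of dividing cells were lower at day 2 and day 4 than at day 0, as both B-type lamins were, and their part in the result was not tested. The 5 kept markers, Mki67, Top2a, Cdk1, Mcm5 and Pcna, had differences of -2.28 to -0.71 for day 2 minus day 0, of -3.15 to -1.15 for day 4 minus day 0, and of 0.53 to 0.95 for shRp58 minus control. Their mean log2 level was 12.73 at day 0, 10.89 at day 2 and 10.18 at day 4, and 11.00 and 11.81 in control and shRp58 cells. Lmnb1 lay above 4 of the 5 at day 4 and below all 5 with shRp58, so in these comparisons its differences were smaller than those of most of these genes. With shRp58 the other Lmnb1 probe set, at 0.56, lay above the lowest marker at 0.53. For day 0 minus growth medium only 1 of the 5 lay below Lmnb1, which was at -0.38. Lmnb2 differed from the markers in sign for day 0 minus growth medium, at 0.15 beside -0.42 to -0.033. It also did for day 4 minus day 2, at 0.067 beside -1.01 to -0.43. The value of 0.15 became -0.054 after quantile and -0.028 after loess normalization, so that contrast in sign depends on the scaling.

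Kept genes for partners of the lamins in the nuclear envelope and for lamin processing numbered 24. Of these, 1 was at least 2-fold higher and 3 were lower at day 4 than at day 0. The shares of all kept genes were 3.83% and 5.66%. The median of the 24 was -0.20 beside -0.044 over all kept genes. The nesprin genes differed in direction: Syne2 and Syne3, whose products anchor the nucleus to the cytoskeleton, were at -2.05 and -1.87, and Syne1 at 0.65. Of the 4 Syne2 probe sets 1 was 2-fold lower, and the highest of the others was -0.034. Nrm, an inner membrane protein gene, was at -1.18, with -0.19 for its other probe set. Tmem38a, which encodes a cation channel of the sarcoplasmic reticulum and nuclear membrane, was 2.09 higher. Emd (emerin), Lbr (the lamin B receptor) and Tmpo (lamina-associated polypeptide 2) stood at -0.99, -0.81 and -0.84, each under 2-fold. The enzymes that trim and methylate prelamins, Zmpste24, Rce1 and Icmt, stood at -0.050, -0.58 and -0.31.

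With shRp58 none of the 24 was 2-fold apart from control. Lbr was highest at 0.61, Nrm stood at 0.42 and Rce1 at 0.30, while Tmem38a was lowest at -0.82, followed by Tor1aip1 at -0.49. Of the 16 envelope genes below 0 at day 4 against day 0, 13 lay above 0 with shRp58, and of the 8 above 0, 6 lay below. Over all kept genes 57.2% of those below 0 at day 4 lay above 0 with shRp58, and 63.1% of those above 0 lay below. These comparisons share no array.

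**Figure D4:**
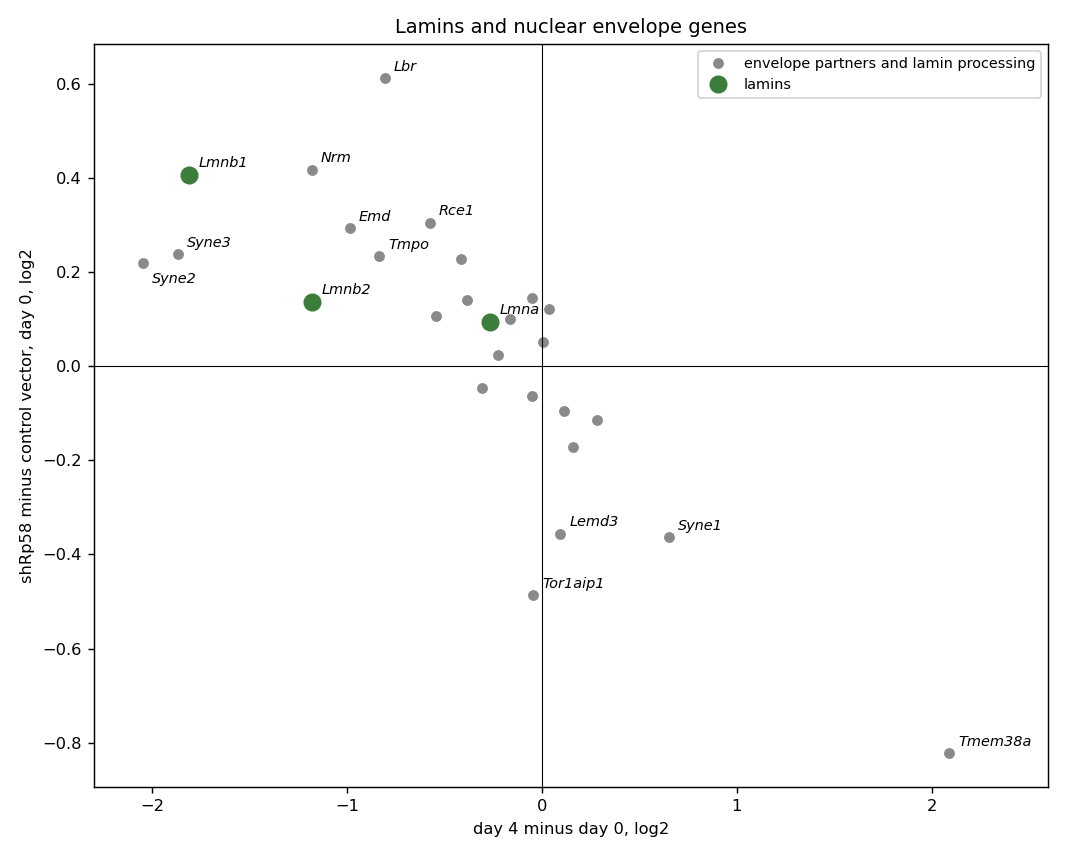
Day 4 minus day 0 in parental cells (horizontal axis, log2) against shRp58 minus control at day 0 (vertical axis, log2), 1 point a gene, with the 3 lamins in green and 24 kept nuclear envelope and lamin-processing genes in grey. Lmnb1 lies at -1.81 and 0.41 in the upper left, nearest to Syne3 at -1.87 and 0.24, and Tmem38a at 2.09 and -0.82 in the lower right.

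Proteins that tie filaments to Z-discs, junctions and membranes, or chaperone them, were read through 21 kept genes. By the brightest probe sets, the Z-disc genes Neb and Ldb3 were the 2 genes at least 2-fold higher on day 0 compared with growth medium. They were so again on day 2 and day 4 compared with day 0, and were the 2 at least 2-fold lower with shRp58. Of all kept genes 2.91%, 2.67% and 3.83% were higher in these time-course comparisons, in that order, and 0.619% were lower with shRp58. Neb stood 2.78 above day 0 at day 4 and at -1.55 with shRp58, and Ldb3 1.70 above and at -1.01. Some other probe sets were past 2-fold too. For Dmd, which did not pass the filter, 1 of 4 stood 3.67 above day 0 at day 4. So did 1 probe set each of Cryab, Mtm1 and Dtna, by 1.03, 1.05 and 1.02. For day 0 minus growth medium 3 of 7 Dtna probe sets were 2-fold higher, up to 1.27, and 1 of 4 for Dst, at 1.06. The desmin chaperone Cryab was 0.89 higher at day 4, filamin C (Flnc) 0.89 and the plakin Macf1 0.70, and with shRp58 these stood at -0.29, -0.47 and -0.41. Plec, the plectin that cross-links desmin to Z-discs, was at 0.14 for day 0 minus growth medium and -0.14 for day 2 minus day 0 with its brightest probe set, and its 3 probe sets reached 0.47 and -0.45. The list's median was 0.070 at day 4 against day 0, where that of all genes was -0.044, and -0.15 with shRp58, where 16 of 21 genes lay below 0, as did 51.3% of all kept genes.

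Of 17 other kept intermediate filament genes, 1 was at least 2-fold higher and 2 were lower at day 4 than at day 0. The higher was Sync, for syncoilin, a partner of desmin in muscle, at 8.83 in growth medium and 9.65, 10.24 and 10.79 on days 0, 2 and 4, with a day 4 minus day 0 of 1.15. The lower were the neurofilament genes Nefl (-4.55) and Nefm (-3.83). They were also the only genes of this list 2-fold higher with shRp58, at 1.39 and 1.56, where 0.0529% of all kept genes were. Krt19 thus shared its low level at day 2 and its higher level with shRp58 with the neurofilament genes, but Nefl and Nefm went on downward from day 2 to day 4, by -0.90 and -0.55, where Krt19 stood 1.002 higher.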

How the data were processed

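The deposited table holds log2 values of single arrays, which the authors made with the RMA algorithm after hybridising 10 ug of cRNA to Affymetrix mouse 430 2.0 arrays, per the series' design text. For the software and its version, and for joint or separate normalization, the sources used here give nothing. Groups were taken from the sample titles, 1 array each, so there is no test and no p-value.

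Gene names came from the platform annotation: 34958 of 45101 probe sets had 1 gene, 932 several and 9211 none, and only the first were named. A gene was read by its probe set with the highest mean over the 6 arrays, and kept where that reached 7.95, which left 13242 of 18194 genes. No detection calls were used. Differences were counted at 2-fold. The members and the gene lists were chosen with earlier results of these data known. Named genes are all members, the 3 nearest genes of each member with a range of at least 2-fold, list genes past 2-fold (up to 8), and others chosen after their values were seen for their role. Promoters came from RefSeq (GRCm38.p6). Differencing and calling were tested on simulated data. Python 3.11.15, numpy 2.4.6, pandas 2.3.3, R 4.3.3 and limma 3.58.1 were used. Alternatives were other filters, scalings, probe-set rules and a 1.5-fold limit.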

Additional observations from a re-analysis of the deposited data

How the results depend on the processing

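No paired analysis was possible because each group holds 1 array and no group shares replicate numbers with another beyond that. Krt19, Lmnb1 and Lmnb2 stayed at least 2-fold lower at day 2 than at day 0 under all 8 alternatives, and Krt19 and Lmnb1 did at day 4. For day 2, only the stricter filter and the other scalings could have changed this. Dropping the filter or lowering the limit could not remove a member past 2-fold. The probe-set rules could not either, as Krt19 has 1 probe set and every Lmnb1 and Lmnb2 probe set was 2-fold lower at day 2. At day 4 Lmnb2 was at -0.98 with the median of its probe sets and at -0.79 with the probe set of largest range, which left 2 members lower. With that last rule 1 member, Lmnb2, was 2-fold apart between day 0 and growth medium, at 1.55. At 1.5-fold 1 member, Krt19, was higher with shRp58, where 3.68% of all genes were apart, and Lmna joined the members lower at day 2, making 4, beside 15.03% of all genes apart. Of 250 member differences recomputed, 10 had another sign, none larger than 0.384 in size, 6 of them under another probe-set rule (Nes, Lmna and Lmnb1) and 4 under another scaling (Vim, Nes and Lmnb2), and 3 crossed 2-fold. Lmnb2 at day 0 against growth medium went from 0.15 to -0.054 after quantile and -0.028 after loess normalization. Quantile normalization also took the median of all genes in that step from 0.098 to -0.032. With 1 array a group and no detection calls, the error of differences below 2-fold and of levels near 7.95 is unknown.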
